A study of Mus musculus with 6 samples.

Results

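Chemokines are small secreted proteins that guide the movement of leukocytes, and they are sorted by the spacing of their first cysteines into CC, CXC, CX3C and XC families. They act on receptors of the G protein-coupled class, most of which bind several ligands, while the atypical receptors bind chemokines without G protein signalling and remove or store them. In bone, osteoblast-lineage and other stromal cells make CXCL12, which holds blood-forming cells in the marrow through CXCR4, and monocytes leave the marrow through CCR2. The chemokine genes were taken by symbol from a table of read counts for 17830 genes, and 55 rows matched. Of these, 54 are described, 36 ligands and 18 receptors. Pf4 and Ppbp, ligands of the CXC family with older names, were included, as were the 4 atypical receptors Ackr1 to Ackr4.

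The counts came from 6 RNA sequencing libraries of calvarial osteoblasts, cultured from skull bone fragments of mice aged 6 months and sorted for tdTomato, 3 from control (mOCN-Cre; Ai9) and 3 from APPswe (TgAPPswemOCN-Cre; Ai9) mice, all described as male. Both groups carry mOCN-Cre, in which Cre is expressed together with osteocalcin from the Bglap gene, and Ai9, a reporter gene for the fluorescent protein tdTomato that Cre switches on. The APPswe mice add a human APP transgene with the Swedish mutations, which is driven by the CAG promoter and held silent by a stop cassette until Cre removes it. The design compares APPswe with control libraries of these sorted cells, here for the transcripts of chemokine ligands and receptors. Which cells in a library made them was not tested. The labels do not say that the 3 libraries of a group came from separate mice, so the p-values measure the spread between these libraries, which may be technical.

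Total counts ranged from 17263757 to 18398392 per library, and 3 counts, taken as the floor of detection, corresponded to between 0.167 and 0.173 CPM (counts scaled to library size, with TMM factors). This floor covers counting error only. The mouse gene App was at 983 to 1287 CPM in control and 1015 to 1048 CPM in APPswe libraries. It was not called, with a log2 fold change of -0.11 (SE 0.11, adjusted p = 0.507 in edgeR's quasi-likelihood test). Whether reads of the human transgene were counted to App is not given in the sources used here. Control replicate 2 stood apart from the other libraries, with 2 counts of 4 Y-linked genes against 2257 to 3406 elsewhere and 1 count of Bglap, the osteocalcin gene, against 115 to 204. Its label also differs, as it is named Ctrl-S while every other library name carries an L. What these letters stand for is not given in the sources used here. Among 12 osteoblast markers listed, the collagen gene Col1a1 was at 3585 to 5705 CPM in all 6 libraries and so did not follow Bglap. This is 1 gene of the 12. Bglap2, Phex and Dmp1 were called lower in APPswe libraries without control replicate 2 and not called with it. Col1a1 alone thus does not show what cells that library held. The cell make-up of control replicate 2 was not tested. Macrophage markers were abundant as well, and 13 of them summed to 18025 to 24942 CPM in the controls against 12512 to 13501 CPM in the APPswe libraries. This sum is weighted to its most abundant gene, since 1 marker alone reached 284993 counts in a library, and 11 of the 13 were not called with all libraries. In bulk RNA, fewer cells of a type and less RNA per cell cannot be told apart. Because of control replicate 2, the calls of members are also given without it.

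Of the 36 ligands, 27 passed the filter on low counts, and of the 18 receptors, 9 did. The other 9 ligands had at most 7 counts in any library and the other 9 receptors at most 5, and Cxcl17, Cxcr5 and Xcr1 had none. Calls needed an adjusted p no greater than 0.05 together with a log2 fold change of 1 or more in either direction. In APPswe libraries 7 ligands and 3 receptors were called higher, where 3.74% of all 13484 genes tested were, and 5 ligands and no receptor were called lower, where 3.60% of all genes were. The 7 higher ligands were Ppbp, Pf4, Cxcl5, Cxcl3, Ccl11, Cxcl1 and Cxcl14, and 6 of them belong to the CXC family. All 5 lower ligands, Ccl8, Ccl12, Ccl4, Ccl3 and Ccl2, belong to the CC family. At an unadjusted p under 0.05, the only lower receptor was Cxcr4. The 3 higher receptors were Ccr2, Cxcr6 and Ccr1. For the 27 ligands the median log2 fold change was 0.055 and for the 9 receptors 0.38, beside -0.0033 for all genes tested. All 3 APPswe libraries lay above all 3 control libraries for 14 of the 36 members tested, where 22.8% of all genes did, and below them for 7, where 22.2% did.

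Without control replicate 2, all 10 higher and all 5 lower members kept their calls, and Ccl28, Ccr3, Ccl5 and Ackr4 were added. The numbers then were 8 ligands and 4 receptors higher, where 4.87% of 13753 genes were, and 6 ligands and 1 receptor lower, where 6.58% were. DESeq2 on all 6 libraries called 7 ligands and 4 receptors higher, where 2.98% of 17368 genes were, and 6 ligands and no receptor lower, where 3.51% were. The 17368 are all genes with a fold change in DESeq2, and any without an adjusted p counted as not called. The DESeq2 shares are thus on another base than those of edgeR. In the fit without control replicate 2, 2 control libraries stood against 3 APPswe libraries.

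**Figure D1:**
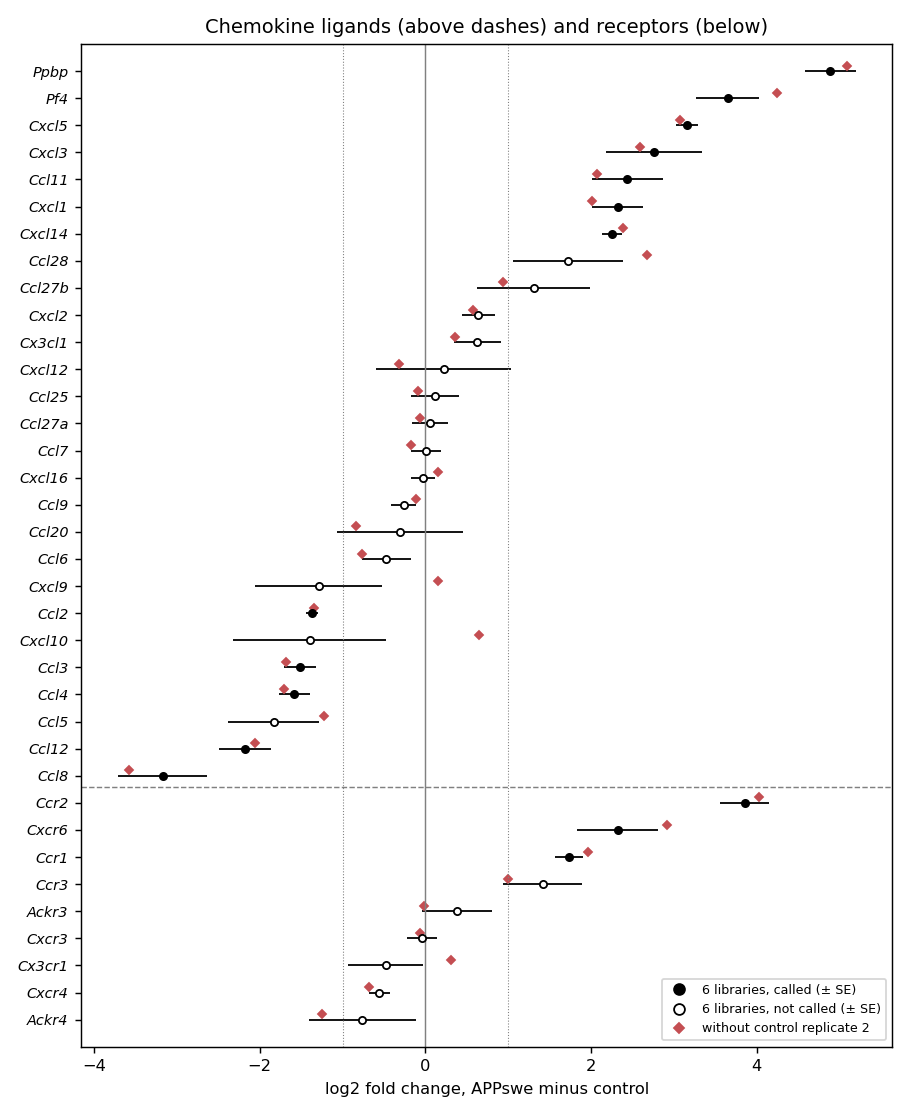
Log2 fold changes of APPswe against control on the x axis for the 27 ligands and 9 receptors tested, with standard errors from the fit of 6 libraries (circles, filled where called) and the values without control replicate 2 (diamonds). Ppbp at 4.89 and Ccr2 at 3.86 lie farthest to the right, Ccl8 at -3.17 lies farthest to the left, and Cxcl9, Cxcl10, Cxcl12 and Cx3cr1 are among the members that cross 0 when that library is left out.

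Of the 6 higher CXC ligands, 5 lie in 1 stretch of the genome, and Cxcl14 lies on chromosome 13. In this stretch of 146.6 kb on chromosome 5 (GRCm38.p6, positions 90759298 to 90905938), the order is Cxcl5, Ppbp, Pf4, Cxcl3, Cxcl15, Cxcl1 and Cxcl2, and 5 of these 7 genes were called higher. Cxcl15 was not tested, with 1 count in all, and Cxcl2 was not called. Upstream sequences are shown for the 4 called genes of this stretch that RefSeq's promoter table for GRCm38.p6 holds, because these genes of 1 stretch were all called higher. Each runs 5′ to 3′ over the 250 bases before the annotated start on the plus strand, with capitals on matches to 5 motifs searched on both strands, the NF-kappaB site, the interferon-stimulated response element, the AP-1 site TGANTCA, the GATA site GATAAG and the TATA box TATAAA.
Ppbp: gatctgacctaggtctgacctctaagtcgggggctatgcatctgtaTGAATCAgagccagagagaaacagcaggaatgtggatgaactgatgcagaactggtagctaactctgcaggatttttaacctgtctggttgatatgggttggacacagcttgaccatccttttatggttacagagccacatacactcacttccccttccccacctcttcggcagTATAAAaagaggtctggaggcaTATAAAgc
Pf4: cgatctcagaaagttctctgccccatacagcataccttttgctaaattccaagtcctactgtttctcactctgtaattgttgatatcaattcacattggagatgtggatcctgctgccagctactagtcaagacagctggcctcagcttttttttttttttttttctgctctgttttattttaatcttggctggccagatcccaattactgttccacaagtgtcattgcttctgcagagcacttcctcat
Cxcl3: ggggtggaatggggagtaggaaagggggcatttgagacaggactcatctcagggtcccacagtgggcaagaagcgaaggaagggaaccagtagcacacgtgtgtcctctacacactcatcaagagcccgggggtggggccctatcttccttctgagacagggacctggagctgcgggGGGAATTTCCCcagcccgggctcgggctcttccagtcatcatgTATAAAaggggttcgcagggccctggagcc
Cxcl1: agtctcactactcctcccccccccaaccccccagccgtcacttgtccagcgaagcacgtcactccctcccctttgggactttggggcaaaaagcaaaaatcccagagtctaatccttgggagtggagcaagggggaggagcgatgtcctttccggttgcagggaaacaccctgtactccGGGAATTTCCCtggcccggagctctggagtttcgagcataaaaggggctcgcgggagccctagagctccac
These are chr5:90768268-90768517 for Ppbp, chr5:90772185-90772434 for Pf4, chr5:90785851-90786100 for Cxcl3 and chr5:90890995-90891244 for Cxcl1.

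Cxcl3 and Cxcl1 carried an NF-kappaB match that reads on both strands, so that the 2 matches overlap, starting 73 bases before the start of Cxcl3 and 71 bases before that of Cxcl1. Ppbp carried 2 TATA matches and 1 AP-1 match, Cxcl3 had 1 TATA match, and the window of Pf4 held none of the 5 motifs. Windows of the same length were found for 42 of the 54 members. An NF-kappaB match was present in 9 of them, including 3 of the 8 called higher (Cxcl1, Cxcl3 and Ccr1) and none of the 3 called lower, and in 7.01% of all 27025 promoters. A TATA match was present in 13 of the 42 and in 13% of all promoters, among them Ccl8 and Ccl12. The interferon element was present in 3 members and 3.04% of all, the AP-1 site in 4 and 6.87%, and the GATA site in 1 and 6.6%. These matches describe the sequence and do not show that a factor bound it.

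**Figure D2:**
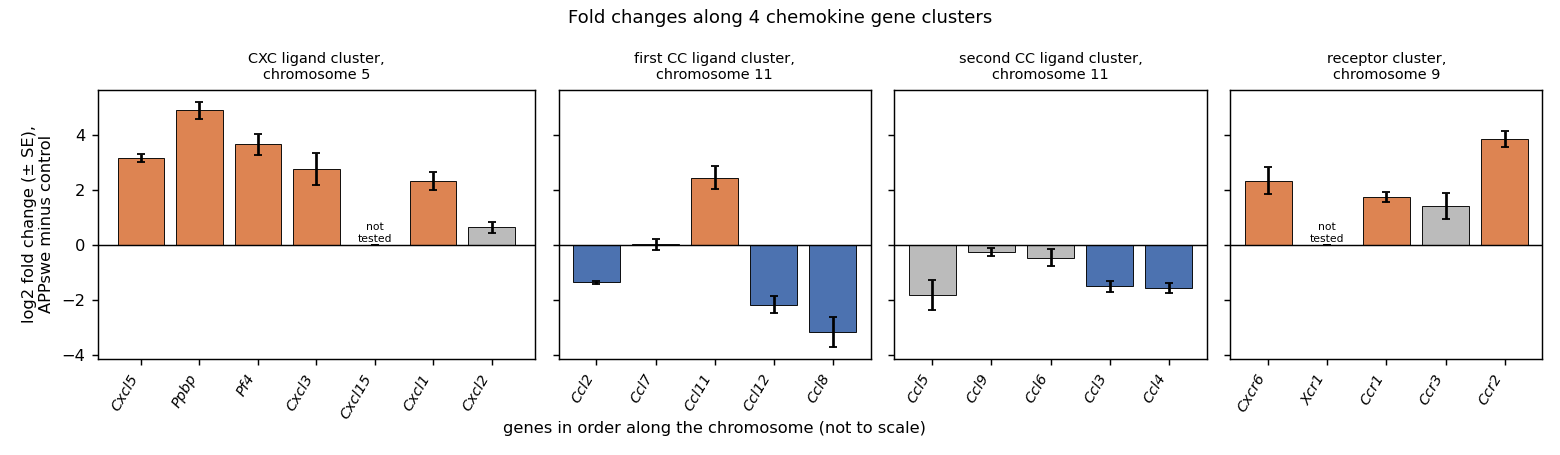
Log2 fold changes with standard errors (APPswe minus control, 6 libraries) on the y axis for neighbouring genes in their order along chromosomes 5, 11 and 9, not to scale, with orange bars called higher, blue bars called lower and grey bars not called. In the CXC stretch 5 genes were called higher, in the 2 CC stretches 5 were called lower and Ccl11 higher, and in the receptor stretch 3 were called higher.

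Ligands of CXCR2 attract neutrophils, and Cxcl5, Cxcl1, Cxcl3, Cxcl2 and Ppbp belong to them. Cxcl5 was counted at 10.4, 8.15 and 9.43 CPM in control replicates 1, 2 and 3 and at 92.6, 82.3 and 74.5 CPM in APPswe replicates 1, 2 and 3. Every APPswe library was far above every control library, and the controls, replicate 2 included, were close together. The means were 8.91-fold apart, with a log2 fold change of 3.16 (SE 0.13, adjusted p = 0.000287) in edgeR's quasi-likelihood test. Cxcl1, the mouse KC chemokine, was at 4.91, 1.97 and 4.40 CPM in control replicates 1, 2 and 3 and at 19.8, 18.1 and 18.5 CPM in APPswe replicates 1, 2 and 3. Its groups were apart too, although control replicate 2 was the lowest library. The change was 5.00-fold, with a log2 fold change of 2.32 (SE 0.31, adjusted p = 0.00405), and without control replicate 2 it was 2.02 (SE 0.12, adjusted p = 2.96e-07).

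Cxcl3 was near the floor in control libraries, with 1, 4 and 11 counts, and had 43, 32 and 37 counts in APPswe libraries. The groups did not overlap, and the summed counts per library size were 6.90 times as high in APPswe libraries (95% exact interval 4.07 to 12.5, counting error only). Its log2 fold change was 2.76 (SE 0.58, adjusted p = 0.0185), and leaving out any APPswe library ended the call, with adjusted p-values between 0.0732 and 0.0831. Cxcl2 was at 1.91, 1.52 and 1.64 CPM in control replicates 1, 2 and 3 and at 2.69, 2.79 and 2.42 CPM in APPswe replicates 1, 2 and 3. All APPswe values were above all control values by a small margin, and with a log2 fold change of 0.64 (SE 0.20, adjusted p = 0.0636) it was not called. Cxcr2, the receptor of these ligands, had 1, 2 and 4 counts in control and 5, 0 and 5 counts in APPswe libraries and was not tested, and Cxcr1 had 2 counts in 1 library. Neutrophil markers were close to the floor, at a sum of 0.450 to 2.60 CPM over 9 genes in control and 1.85 to 2.47 CPM in APPswe libraries.

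Pf4 and Ppbp encode platelet factor 4 and the precursor of platelet basic protein, chemokines stored in platelet granules and also known from macrophages. Pf4 was counted at 11.9, 29.2 and 11.2 CPM in control replicates 1, 2 and 3 and at 214, 217 and 227 CPM in APPswe replicates 1, 2 and 3. The APPswe libraries were far above the controls and near one another, and control replicate 2 was the highest of the controls. The means were 12.6-fold apart, with a log2 fold change of 3.65 (SE 0.38, adjusted p = 0.00176), and without control replicate 2 the log2 fold change was 4.25 (SE 0.08, adjusted p = 5.31e-10). Ppbp had 2, 3 and 2 counts in control and 64, 69 and 88 counts in APPswe libraries. All control values were thus at or under the floor, and the summed counts per library size differed 31.1 times (95% exact interval 14.9 to 78.3, counting error only). The log2 fold change was 4.89 (SE 0.31, adjusted p = 0.000470), the largest among the members tested.

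Other genes of megakaryocytes and platelets were listed after the data were seen. Of 9 such genes, Gp9, Gp1ba and Tubb1 had at most 4 counts in any library and Gp6 had none. Of the 4 tested, only Itga2b was called higher, where 3.74% of all genes were. Itga2b, an integrin chain of platelets, rose from 0.924, 1.52 and 1.69 CPM in control to 3.87, 3.96 and 3.88 CPM in APPswe libraries, with a log2 fold change of 1.49 (SE 0.26, adjusted p = 0.00955), and it was also called without control replicate 2, when Itgb3 was called lower. The summed level of the list was 26.8 to 56.6 CPM in control and 33.5 to 36.0 CPM in APPswe libraries, most of it from Itgb3.

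Per transcript length, Pf4 was the most abundant chemokine ligand of the APPswe libraries. In the FPKM values computed by the authors, it was at 34.8, 85.3 and 33.1 FPKM in control replicates 1, 2 and 3 and at 681, 673 and 704 FPKM in APPswe replicates 1, 2 and 3. It ranked 10th, 5th and 10th among the ligands in control replicates 1, 2 and 3 and first in each APPswe library, where it made up 36.0%, 36.1% and 36.7% of the summed ligand FPKM. Cxcl12 ranked first in control replicates 1 and 3, at 26.1% and 27.5% of the sum, and Ccl2 in control replicate 2, at 28.5%. The summed FPKM of all ligands was 1575, 1105 and 1575 in the controls and 1893, 1865 and 1918 in the APPswe libraries. The sum, with Pf4 counted in it, was higher in each APPswe library than in any control, but the ligand groups moved in both directions. The group named monocyte attractants (Ccl2, Ccl7, Ccl8 and Ccl12) summed to 479 to 624 FPKM in control and only 293 to 302 FPKM in APPswe libraries. The CXCR2 ligands summed to 11 to 17 FPKM in control and 93 to 110 FPKM in APPswe libraries.

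**Figure D3:**
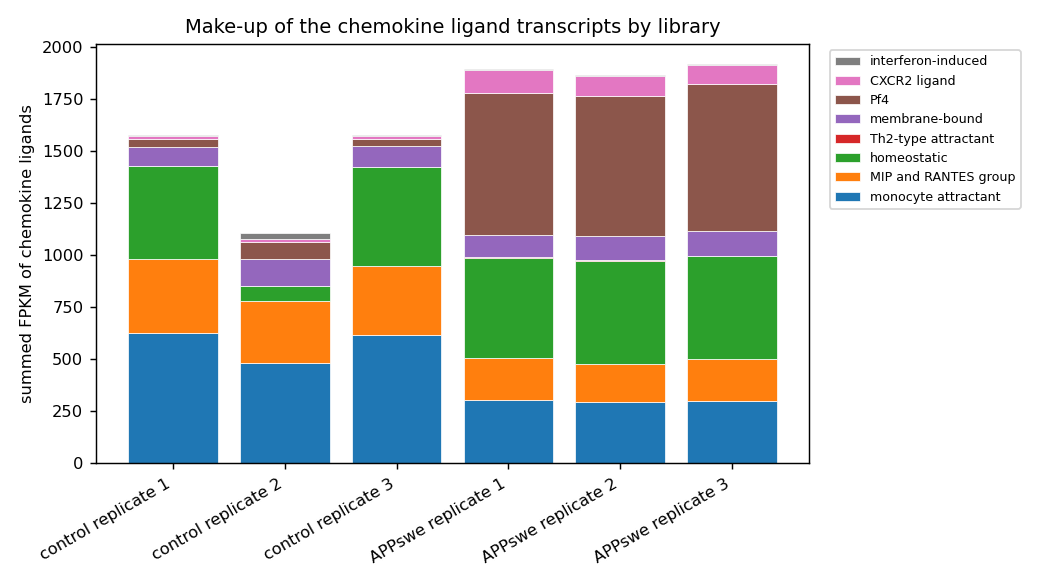
Summed FPKM of the 36 chemokine ligands on the y axis, 1 bar per library, stacked by ligand group. Pf4 was at 33.1 to 85.3 FPKM in control and 673 to 704 FPKM in APPswe libraries, the 4 monocyte attractants summed to 479 to 624 FPKM and 293 to 302 FPKM, and the homeostatic group was small only in control replicate 2, at 69.0 FPKM.

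Of the 4 ligands grouped here as monocyte attractants, 3 fell. The receptor paired here with 1 of them, Ccl8, was CCR8 and not CCR2. Ccl2, the main ligand of CCR2, was counted at 175, 178 and 164 CPM in control replicates 1, 2 and 3 and at 64.3, 67.0 and 68.3 CPM in APPswe replicates 1, 2 and 3. The control libraries lay close together, replicate 2 included, and all were more than 2-fold above the APPswe libraries. With a log2 fold change of -1.37 (SE 0.07, adjusted p = 0.000296) it was 2.59-fold lower, the smallest standard error of any member. Ccl12, another CCR2 ligand, was at 6.64, 7.59 and 5.42 CPM in control replicates 1, 2 and 3 and at 0.841, 1.89 and 1.57 CPM in APPswe replicates 1, 2 and 3. Its groups did not overlap, the counts were low (15 to 34 in APPswe libraries), and the change was 4.56-fold, with a log2 fold change of -2.18 (SE 0.31, adjusted p = 0.00516). Ccl8 was at 36.1, 8.71 and 32.2 CPM in control replicates 1, 2 and 3 and at 2.86, 2.40 and 3.26 CPM in APPswe replicates 1, 2 and 3. Control replicate 2 had the lowest control value and still lay above every APPswe library. Ccl8 was 9.04-fold lower, with a log2 fold change of -3.17 (SE 0.54, adjusted p = 0.00877), and without control replicate 2 the log2 fold change was -3.58 (SE 0.13, adjusted p = 9.47e-09). Leaving out APPswe replicate 1 or 2 ended the call of Ccl8, with adjusted p-values of 0.0518 and 0.0533.

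Ccl7 lies between Ccl2 and Ccl11 and also binds CCR2, but it was not called. It was at 86.7, 58.6 and 100.1 CPM in control replicates 1, 2 and 3 and at 85.3, 80.4 and 81.4 CPM in APPswe replicates 1, 2 and 3, so the APPswe libraries fell within the range of the controls, with a log2 fold change of 0.01 (SE 0.18, adjusted p = 0.974). Ccl11, or eotaxin, attracts eosinophils through CCR3 and is made by fibroblasts and other stromal cells. Its counts were 9, 3 and 10 in control and 53, 35 and 35 in APPswe libraries, which do not overlap. The summed counts per library size differed 5.51 times (95% exact interval 3.48 to 9.12, counting error only), with a log2 fold change of 2.44 (SE 0.43, adjusted p = 0.0102), and without APPswe replicate 1 the adjusted p was 0.0547. In this stretch of 81.2 kb on chromosome 11 (82035577 to 82116799), Ccl2, Ccl7, Ccl11, Ccl12 and Ccl8 therefore held 3 genes called lower, 1 called higher and 1 not called.

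A second stretch on chromosome 11 (83525778 to 83664683, 138.9 kb) holds Ccl5, Ccl9, Ccl6, Ccl3 and Ccl4, a group that includes macrophage inflammatory proteins and RANTES. Ccl3 was counted at 44.7, 27.8 and 41.0 CPM in control replicates 1, 2 and 3 and at 13.8, 11.8 and 14.2 CPM in APPswe replicates 1, 2 and 3. Every APPswe library was below every control library, and the change was 2.85-fold, with a log2 fold change of -1.51 (SE 0.19, adjusted p = 0.00338). Ccl4 was at 38.2, 29.6 and 40.8 CPM in control replicates 1, 2 and 3 and at 10.6, 11.0 and 14.7 CPM in APPswe replicates 1, 2 and 3. It too was lower in each APPswe library, 2.99-fold by the means, with a log2 fold change of -1.58 (SE 0.18, adjusted p = 0.00242). The annotated spans of Ccl3 and Ccl4 overlap in RefSeq, and since no source used here says whether reads were counted by strand, reads in the overlap could have been assigned to either.

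Ccl5, or RANTES, was at 2.60, 6.75 and 2.65 CPM in control replicates 1, 2 and 3 and at 0.561, 1.78 and 1.01 CPM in APPswe replicates 1, 2 and 3. The groups did not overlap, but control replicate 2 was far above the other controls, and with a log2 fold change of -1.83 (SE 0.55, adjusted p = 0.0547) it was not called. Without that library it was called lower, at -1.22 (SE 0.34, adjusted p = 0.0123), as it was by DESeq2 on all 6 libraries, at -1.85 (adjusted p = 0.0113). Ccl9 did not separate the groups, at 299.5, 367 and 252 CPM in control and 280.3, 239 and 247 CPM in APPswe libraries. Its log2 fold change was -0.26 (SE 0.15, adjusted p = 0.241). Ccl6 was at 84.9, 35.6 and 77.2 CPM in control and 50.9, 45.7 and 46.1 CPM in APPswe libraries. Control replicate 2 was the lowest library, and the log2 fold change was -0.47 (SE 0.30, adjusted p = 0.296) with it and -0.77 (adjusted p = 1.80e-05) without it.

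**Figure D4:**
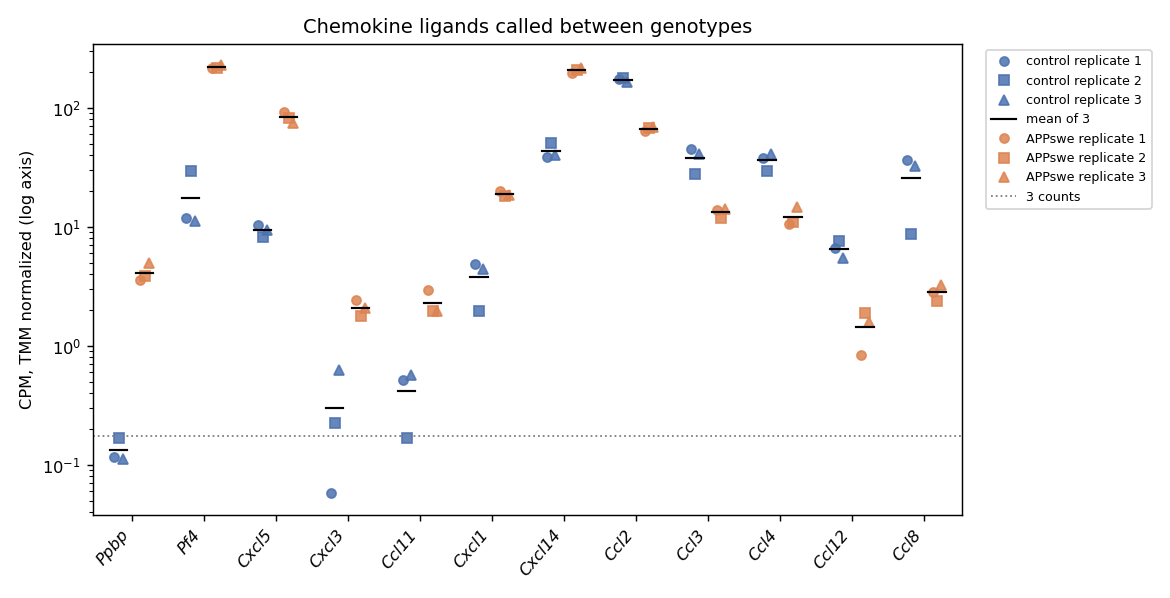
CPM on a log axis for the 12 ligands called, with 1 point per library (circle, square and triangle for replicates 1, 2 and 3), bars for the mean of 3 and a dotted line at 3 counts. The groups do not overlap for any of the 12, and the control points of Ppbp lie at or under 3 counts.

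Among the homeostatic ligands, which are made without inflammation and direct cells within tissues, 1 of 7 tested was called. Cxcl14, a CXC ligand of epithelial and stromal cells, was counted at 38.6, 50.5 and 40.4 CPM in control replicates 1, 2 and 3 and at 195, 208 and 216 CPM in APPswe replicates 1, 2 and 3. The groups were far apart and each was tight. The means differed 4.78-fold, with a log2 fold change of 2.26 (SE 0.12, adjusted p = 0.000296). Cxcl12 was at 808, 53.9 and 862 CPM in control replicates 1, 2 and 3 and at 649, 681 and 679 CPM in APPswe replicates 1, 2 and 3. Control replicate 2 was far under every other library, and among the other 5 the controls were the higher ones. With all libraries the log2 fold change was 0.22 (SE 0.82, adjusted p = 0.870), and without control replicate 2 it turned to -0.31 (SE 0.06, adjusted p = 0.00124), under the limit on the fold change. Ccl28, which acts through CCR10, had 3, 8 and 1 counts in control and 21, 10 and 10 in APPswe libraries, with a log2 fold change of 1.72 (SE 0.66, adjusted p = 0.108), and it was not called. It was called higher without control replicate 2, at 2.67 (SE 0.65, adjusted p = 0.00644), and with the style of the library name as a covariate, at 2.21 (adjusted p = 0.0443). Ccl25, Ccl27a, Ccl27b and Ccl20 were not called. Ccl27a and Ccl27b are near copies that overlap Il11ra1 and Il11ra2, so the share of reads that belongs to each is uncertain.

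Cxcl16 and Cx3cl1 are made as membrane-bound proteins that can be shed. Cxcl16 was at 109, 159 and 121 CPM in control replicates 1, 2 and 3 and at 118, 129 and 136 CPM in APPswe replicates 1, 2 and 3, and with a log2 fold change of -0.03 (SE 0.15, adjusted p = 0.916) the groups overlapped. Cx3cl1 was higher in each APPswe library, with a log2 fold change of 0.63 (SE 0.28, adjusted p = 0.153), and was not called. The interferon-induced ligands Cxcl10 and Cxcl9 were high in control replicate 2 only, Cxcl10 at 25.0 CPM against 2.03 to 4.16 CPM in the other libraries and Cxcl9 at 4.55 CPM against 0.669 to 0.899 CPM. Neither was called, with log2 fold changes of -1.40 (SE 0.93, adjusted p = 0.315) and -1.29 (SE 0.77, adjusted p = 0.265), which turned to 0.65 and 0.15 without that library.

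CCR2 and CCR1 are chemokine receptors of monocytes and macrophages, and both genes rose. Ccr2 was counted at 1.04, 1.01 and 0.452 CPM in control replicates 1, 2 and 3 and at 12.7, 12.8 and 11.0 CPM in APPswe replicates 1, 2 and 3. The controls were low, with 18, 18 and 8 counts, and the APPswe libraries had between 196 and 230. The means differed 14.6-fold, with a log2 fold change of 3.86 (SE 0.29, adjusted p = 0.000763). Ccr1 was at 17.2, 26.0 and 17.7 CPM in control replicates 1, 2 and 3 and at 71.5, 66.5 and 64.8 CPM in APPswe replicates 1, 2 and 3. Every APPswe library was more than 2-fold above the highest control, which was replicate 2. The change was 3.33-fold, with a log2 fold change of 1.74 (SE 0.17, adjusted p = 0.00153).

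A stretch of 302.7 kb on chromosome 9 (123806477 to 124109140) holds Cxcr6, Xcr1, Ccr1, Ccr3 and Ccr2 in this order. Cxcr6, a receptor of T cells and other lymphocytes for CXCL16, had 1, 4 and 2 counts in control and 10, 14 and 13 in APPswe libraries, a ratio of 5.21 per library size (95% exact interval 2.29 to 13.9, counting error only). It was called higher, with a log2 fold change of 2.32 (SE 0.49, adjusted p = 0.0189), but kept the call in only 1 of the 6 fits that each left out a library, the one without control replicate 2. The span of Cxcr6 overlaps that of Fyco1, and how reads in the overlap were counted is not given in the sources used here. Ccr3, the eosinophil receptor for CCL11, was at 2.48, 0.562 and 2.14 CPM in control replicates 1, 2 and 3 and at 5.38, 4.12 and 4.38 CPM in APPswe replicates 1, 2 and 3. The groups did not overlap, and with a log2 fold change of 1.42 (SE 0.47, adjusted p = 0.0752) it was not called by edgeR on all 6 libraries. It was called higher without control replicate 2, at 1.00 (SE 0.19, adjusted p = 0.00155), and by DESeq2 on all 6 libraries, at 1.42 (adjusted p = 0.0285).

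**Figure D5:**
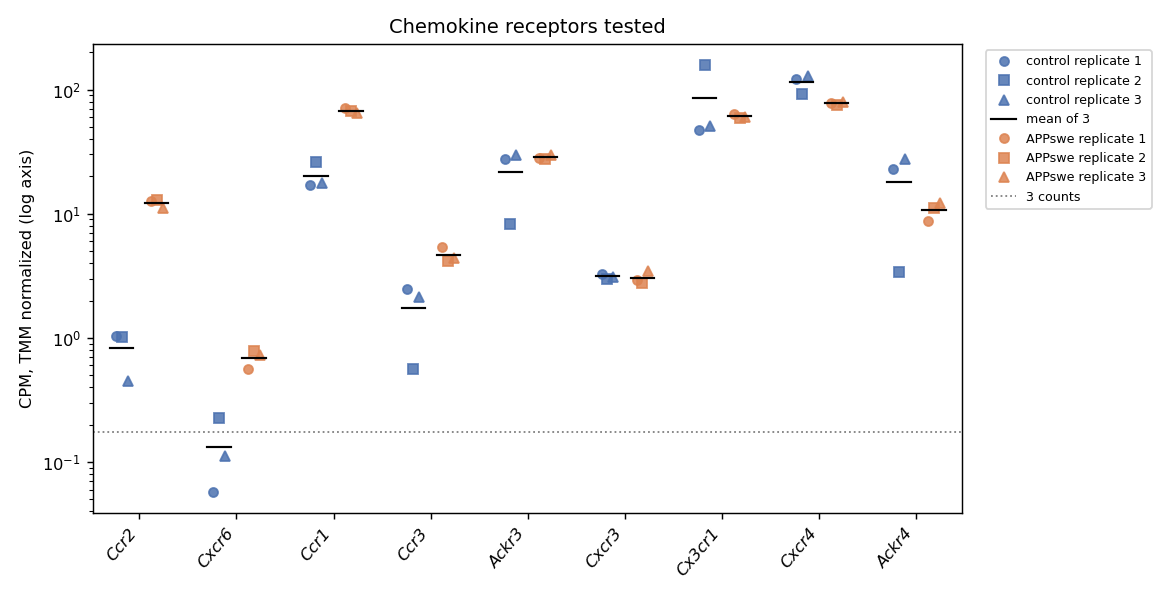
CPM on a log axis for the 9 receptors tested, with 1 point per library (circle, square and triangle for replicates 1, 2 and 3), bars for the mean of 3 and a dotted line at 3 counts. APPswe points lie above all control points for Ccr2, Cxcr6, Ccr1 and Ccr3 and below them for Cxcr4, and control replicate 2 is far from the other controls for Cx3cr1, Ackr3 and Ackr4.

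Cxcr4, the receptor for CXCL12, was in every library of both groups the most abundant of the receptors described. It was at 76.0, 58.0 and 80.1 FPKM in control and at 51.9, 49.6 and 52.0 FPKM in APPswe libraries. In CPM all APPswe libraries were below all controls, with a log2 fold change of -0.56 (SE 0.13, adjusted p = 0.0252), so it passed the limit on p and not that on the fold change. Cx3cr1, the receptor for CX3CL1 on macrophages, was at 47.3, 157 and 50.9 CPM in control replicates 1, 2 and 3 and at 63.6, 59.0 and 60.4 CPM in APPswe replicates 1, 2 and 3. Control replicate 2 was far above all others, and the log2 fold change was -0.48 (SE 0.45, adjusted p = 0.482) with it and 0.32 (SE 0.07, adjusted p = 0.00512) without it. Cxcr3, the receptor for CXCL9 and CXCL10, was between 2.79 and 3.43 CPM in every library.

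Of the atypical receptors, Ackr3, which scavenges CXCL12, and Ackr4, which scavenges CCL19, CCL21 and CCL25, were tested. Ackr3 was not called, as 5 libraries held 27.8 to 29.6 CPM and control replicate 2 held 8.21 CPM. Ackr4 was at 23.1, 3.37 and 27.6 CPM in control replicates 1, 2 and 3 and at 8.69, 11.1 and 12.1 CPM in APPswe replicates 1, 2 and 3. Control replicate 2 was the lowest library and the other controls were the highest, so the groups overlapped, and Ackr4 was called lower only without control replicate 2, at -1.25 (SE 0.14, adjusted p = 2.8e-05). Ackr4 overlaps Acad11, and how reads in the overlap were counted is not given in the sources used here. Ackr1 and Ackr2 had at most 3 counts in any library.

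For CCR2, whose gene was called higher, the ligands Ccl2 and Ccl12 were called lower and Ccl7 was not called. For CCR1, whose gene was also called higher, only the ligand Ccl3 was called lower, and Ccl7, Ccl9, Ccl6 and Ccl5 were not called. For CXCR2, 4 of 5 ligands were called higher and the receptor was not tested.

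The levels of marker genes that moved beside these receptors are given because CCR2 and CCR1 mark cells of the myeloid lineage. Over all genes tested, 3.74% were called higher and 3.60% lower with all libraries. Without control replicate 2 the shares were 4.87% and 6.58%. Of the 13 macrophage markers, Aif1 was called higher and Cd14 lower, while without control replicate 2 neither was called and Lyz2 was called lower. The sum of all 13, which is weighted to its most abundant gene, was lower in each APPswe library than in any control. Of 8 osteoclast markers, 4 of the 7 tested were called higher, among them Acp5 and Mmp9, and 5 were without control replicate 2. The sum of the 8 was 158 to 289.8 CPM in control and 719 to 731 CPM in APPswe libraries. For 4 monocyte markers the sum was 2.87 to 26.3 CPM in control and 123 to 135 CPM in APPswe libraries, and in all libraries but control replicate 2 nearly all of it came from F13a1, while Ly6c2 and Chil3 had at most 5 counts in any library. Neither of the 2 monocyte markers tested, F13a1 and Plac8, was called with all libraries, and both were called higher without control replicate 2. Among 6 T and NK cell markers in the table the sum was at most 2.19 CPM in any library, and for 4 B cell markers it was at most 1.29 CPM. All 8 skeletal muscle markers were called higher, with and without control replicate 2, with a sum of 2.48 to 10.6 CPM in control and 145 to 148 CPM in APPswe libraries. Of 6 endothelial markers Vwf was called lower with all libraries and all 6 were without control replicate 2, and their sum was 56.8 to 242 CPM in control and 21.7 to 23.2 CPM in APPswe libraries. Of 12 osteoblast markers Sp7 was called higher in both fits, and Bglap2, Phex and Dmp1 were called lower without control replicate 2 and not called with it. Of 3 dendritic cell markers tested Zbtb46 was called higher in both fits. No B cell or mast cell marker was tested with all libraries, and without control replicate 2 Cd79b was called higher and Kit lower, as was the neutrophil marker Camp. The part of such cells in the chemokine results was not tested.

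Genes that carry or switch on chemokine signals were also listed. Of 44 intracellular partners tested, such as G protein subunits, arrestins and the kinases that turn receptors off, Grk3 and Fgr were called higher and Rgs18, a regulator that shortens G protein signalling, was called lower. These are 2 and 1 of 44, near the 3.74% and 3.60% of all genes called higher and lower. Grk3, a kinase that desensitizes receptors, had a log2 fold change of 1.10 (SE 0.19, adjusted p = 0.00896) and without control replicate 2 it was at 0.98 (adjusted p = 0.000313), just under the limit on the fold change. Rgs18 and Fgr kept their calls in that fit. Of 32 regulators of chemokine transcription, Fos, a subunit of AP-1, was called higher, at 1.34 (SE 0.25, adjusted p = 0.0119), and at 1.09 without control replicate 2. Irf7 and Stat2, which act in the interferon response, were called lower, at -2.74 (SE 0.76, adjusted p = 0.0429) and -1.50 (SE 0.35, adjusted p = 0.0270). Both were high in control replicate 2, Irf7 at 203 CPM against 32.7 and 34.1 CPM in the other controls and 13.1 to 13.8 CPM in APPswe libraries, and without that library Irf7 was called at -1.31 and Stat2, at -0.94, was under the limit on the fold change. With 1 and 2 of 32, the calls in this list also lie near the shares over all genes. None of the NF-kappaB subunits in the list, Nfkb1, Nfkb2, Rela, Relb and Rel, was called, with Nfkb1 at the smallest adjusted p, 0.109. Of 19 other chemoattractant receptors and ligands tested, Cmklr1, the chemerin receptor, and S1pr3, a receptor for sphingosine 1-phosphate, were called higher, at 1.46 (SE 0.21, adjusted p = 0.00529) and 1.56 (SE 0.10, adjusted p = 0.000464). These were 2 of 19, where 3.74% of all genes were called higher. Both kept their calls without control replicate 2, and Dpp4, a protease that cuts chemokines and was not tested with all libraries, was then called lower.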

How the data were processed

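Osteoblasts sorted for tdTomato from calvarial bone cultures were profiled by RNA sequencing on the DNBseq platform in 3 control and 3 APPswe libraries. The authors deposited whole-number read counts per gene and FPKM values (read fragments scaled by transcript length and by library size) rounded to 2 decimals. The labels name the build GRCm38, while the aligner, the counter, the annotation and the use of strand are not given in the sources used here. The deposited tables also hold log2 fold changes and p-values of the authors' own comparison, which were not used.

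Counts were tested with edgeR 4.0.16 (R 4.3.3) by the quasi-likelihood F test after TMM scaling and filterByExpr, with Benjamini-Hochberg adjustment over all 13484 genes tested. Calls required an adjusted p no greater than 0.05 and a log2 fold change of 1 or more in either direction. The SE is the absolute log2 fold change divided by the square root of F. Adjusted p-values in the text come from this fit unless another fit, covariate or tool is named. Those of another edgeR fit were adjusted over the genes tested in that fit. Levels of the same gene are given in CPM, and levels of different genes are compared in FPKM. TMM scaling sets the median gene as the reference, so changes are relative to the bulk of genes. Each library held about as many counts as the others, between 17263757 and 18398392. The 15 pairs of libraries were compared by a chi-square per degree of freedom, which is near 1 under sampling noise alone. APPswe replicates 2 and 3 came close to that, at 1.57, and the other pairs were at 5.94 to 105. The spread between those 2 APPswe libraries was thus little more than counting error. Ratios of genes with few counts carry exact 95% binomial intervals. Alternatives were DESeq2 1.42.0, limma 3.58.1 on log2(FPKM + 1) and log2(FPKM + 0.1) with FPKM of at least 0.5 in at least 3 libraries or no filter (blank cells read as 0), other scalings and filters, a replicate block, the style of the library name as a covariate, and each library left out in turn. The tests were checked on simulated counts with 200 changed genes.

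Members were found by gene symbol. Among the matching genes and the marker lists, 3 genes are not reported here and are left out of all counts and sums of members and lists, while the fits across all genes include them. Genes named with values were those called with all libraries or without control replicate 2, the 5 ligands and 4 receptors with the highest mean FPKM, and the ligand or receptor partners of called members, and Cxcl9, Cxcl10, Cxcl2, Cx3cl1, Cxcr3 and the genes at few counts that are named besides were chosen after their values were seen or stand for their group. The members, the gene lists and the sequences shown were chosen with earlier results of these data known. Members without a row in the table, such as Ccl1 and Cxcl11, were not analysed here. Positions and upstream sequences are from RefSeq for GRCm38.p6.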

Additional observations from a re-analysis of the deposited data

How the results depend on the processing

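The counts of called members (7 ligands higher, 5 lower, 3 receptors higher, 0 lower) stayed within 1.5 times under DESeq2 (7, 6, 4 and 0), limma on FPKM (7, 5, 2 and 0), the other scalings, no low-count filter and the covariate. Requiring at least 10 counts in every library left 4 ligands and 1 receptor higher, because fewer genes were tested. With the adjusted p alone, 1 receptor was lower. Testing for a change beyond 1 on the log2 scale (glmTreat), chosen after seeing the data, called 1 ligand lower. Leaving out each library in turn gave 5 to 8 ligands higher, 4 to 6 lower, 2 to 4 receptors higher and 0 to 1 lower. The cause of these shifts was not tested, except for the stricter filter.

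Among the 27 tested members of the 28 named by the rule (Cxcr2 was not tested), signs reversed only for 5 that were not called. Without control replicate 2, the log2 fold change was -0.31 for Cxcl12, -0.18 for Ccl7, 0.15 for Cxcl16, 0.32 for Cx3cr1 and -0.011 for Ackr3. Over all libraries left out in turn it ran from -0.31 to 0.63 for Cxcl12, -0.18 to 0.18 for Ccl7, -0.14 to 0.15 for Cxcl16, -0.77 to 0.32 for Cx3cr1 and -0.011 to 0.65 for Ackr3. Ccl7 was at -0.038 with the style of the library name as a covariate and at -0.012 without APPswe replicate 1. Cxcl16 was at 0.044 without TMM, 0.031 without APPswe replicate 1, 0.066 in limma with a pseudocount of 1, with or without a filter, and 0.067 with 0.1. Of 476 alternative values of 27 members, 435 kept direction and call, 20 lost the call, 9 gained one and 12 reversed.

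Same-numbered control and APPswe libraries deviated together only weakly (correlations over 13484 genes of 0.0909, -0.0492 and 0.214). These 3 values cannot decide whether the numbers pair the samples, because control deviations were taken from a mean that includes control replicate 2. Other pairings, such as by library name, were not tested. With a replicate block, 6 ligands were higher, 6 lower, 3 receptors higher and 0 lower, since Cxcl3 lost its call (adjusted p = 0.0555) and Ccl5 gained one (adjusted p = 0.0264). Depth limits the 18 members that were not tested, and Ppbp, Cxcl3, Ccl11 and Cxcr6 rest on few control counts.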
